A study of Mus musculus with 7 samples.

Results

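The 7 genes described here are 4 haemoglobin chains and 3 genes of the red cell lineage: the embryonic beta-like globins Hbb-y and Hbb-bh1, the embryonic alpha-like globin Hba-x, the adult alpha-globin Hba-a1, the haem synthesis gene Alas2, and the transcription factor genes Gata1 and Klf1. They were chosen by symbol, and every probe of the arrays that mapped to one of them was used, which gave 8 probes (2 for Hbb-bh1, 1 for each of the others). They stand among 17047 named genes and 41174 probes. All 7 were well above background on at least 1 array, by the flag that the scanner software sets for each spot.

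Total RNA of 7 mouse samples was measured on 7 one-colour Agilent arrays, 1 array per group, so no group had replicates and no test between groups was possible. The groups compare stomach tissue grown from embryonic stem (ES) cells with the stomach of the embryo and with adult organs. The day 42 tissue was differentiated in medium with EGF (50 ng/mL), FGF10 (100 ng/mL), Wnt3a, Noggin and R-spondin1 (250 ng/mL). The day 46 tissue had the same 42 days followed by 4 days with Shh (100 ng/mL) and Bmp4 (10 ng/mL), with EGF throughout. The E9.5 sample was the stomach primordium of ICR mouse embryos, and esophagus, lung, stomach and intestine came from adult ICR mice and were used fresh. No sample carries a labelled mutation or transgene. The name and genotype of the ES cell line, the age and sex of the adult animals, the number of animals or cultures per sample, and whether blood was washed from the organs are not given in the sources used here. The design text also names cultures without Shh and Bmp4 at 46 days and at 5 months, which were not analysed here, so 4 more days of culture and the change of factors cannot be told apart between days 42 and 46. The ES-derived tissues grew in culture, outside an animal's circulation.

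Levels below are log2 intensities minus the array's 75th percentile, so 0 is the 75th percentile of that array and a difference of 1 is 2-fold. Between 77.8% and 90.5% of named genes were well above background per array, no spot was saturated, and the median spread of repeated spots was 0.06 to 0.10 (SD, log2). Different probes of one gene disagreed more, with an SD of the log2 difference between 0.51 and 0.89 in the 6 comparisons below, and this SD is the error used here. The 4 adult organs shared a slide, while the E9.5, day 42 and day 46 samples each lay on a slide of their own, so slide and sample cannot be told apart for these 3. Both ES-derived arrays were also read with another version of the scanner software than all tissue arrays. Software version and culture against tissue thus cannot be told apart either. Marker genes of the tissues bore out the labels of adult stomach (8 of 8 stomach genes highest there), lung (5 of 5) and intestine (6 of 6), and of 5 esophagus genes 4 were highest in esophagus. The esophagus array also held the lung genes Sftpc (5.12, against 9.71 in lung) and Scgb1a1 (5.44, against 9.57). Of 8 genes of the stomach primordium, 4 were highest on the E9.5 array, so these bore out its label only in part. Barx1 and Sox2, regulators of the early stomach, were among the 4, at 0.98 and 0.38. Barx1 led adult stomach (0.76) by less than the SD between probes of 0.63. Gata4 stood at −4.18 at E9.5 and 0.05 in adult stomach, and the mean of the 8 was −1.27 and −1.05. None of the 8 genes of the mature stomach reached the 75th percentile on the E9.5 array (summed level −2.21, against 12.24 in adult stomach).

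Haemoglobin is built from alpha-like and beta-like globin chains, each encoded in its own gene cluster, and each chain carries a haem group. In the mouse embryo the first, primitive red cells arise in the yolk sac, circulate with their nuclei, and use the embryonic chains Hbb-y, Hbb-bh1 and Hba-x beside the adult alpha chains, while the definitive red cells of fetal liver and bone marrow use adult alpha and beta chains. Alas2 encodes the red cell form of the enzyme that starts haem synthesis, Gata1 the zinc finger factor needed for red cell and platelet precursors, and Klf1 the factor that binds CACCC boxes in the globin and other red cell promoters.

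RefSeq promoters (build GRCm38.p6, 250 bases before to 50 after the start of the gene) were at hand for 6 of the 7 genes, Hbb-bh1 being the exception. Shown are those of the genes whose patterns the results turn on: the embryonic globins Hbb-y (chr7:103853158-103853457, minus strand) and Hba-x (chr11:32276350-32276649, plus strand), the adult globins Hba-a1 (chr11:32283422-32283721, plus strand) and Hbb-bt (chr7:103813874-103814173, minus strand), and Alas2 (chrX:150547167-150547466, plus strand). Each runs 5′ to 3′ on the gene's strand. Capitals mark matches on either strand to any of 4 motifs. The GATA motif was AGATAA, where the first letter could also be T and the last letter G. The motif of the CACCC type was CCNCNCCC. The others were CCAAT, known as the CCAAT box, and the core promoter motif TATAAA.
Hbb-y promoter: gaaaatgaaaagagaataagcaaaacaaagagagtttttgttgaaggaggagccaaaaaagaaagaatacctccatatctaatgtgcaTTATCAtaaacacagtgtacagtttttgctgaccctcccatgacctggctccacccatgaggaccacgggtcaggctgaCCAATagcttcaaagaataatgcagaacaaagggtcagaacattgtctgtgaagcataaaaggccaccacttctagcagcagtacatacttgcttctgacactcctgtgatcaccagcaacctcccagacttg
Hba-x promoter: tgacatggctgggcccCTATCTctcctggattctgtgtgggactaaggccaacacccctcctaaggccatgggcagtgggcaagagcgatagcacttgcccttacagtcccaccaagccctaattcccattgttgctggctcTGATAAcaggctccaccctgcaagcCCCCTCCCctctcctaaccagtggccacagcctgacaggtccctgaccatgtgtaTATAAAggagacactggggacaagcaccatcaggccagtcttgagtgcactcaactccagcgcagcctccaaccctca
Hba-a1 promoter: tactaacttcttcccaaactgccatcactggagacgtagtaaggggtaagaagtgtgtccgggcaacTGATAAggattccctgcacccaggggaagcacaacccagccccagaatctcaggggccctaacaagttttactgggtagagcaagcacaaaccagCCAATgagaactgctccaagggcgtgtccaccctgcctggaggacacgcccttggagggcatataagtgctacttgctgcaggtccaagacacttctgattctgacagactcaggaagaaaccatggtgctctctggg
Hbb-bt promoter: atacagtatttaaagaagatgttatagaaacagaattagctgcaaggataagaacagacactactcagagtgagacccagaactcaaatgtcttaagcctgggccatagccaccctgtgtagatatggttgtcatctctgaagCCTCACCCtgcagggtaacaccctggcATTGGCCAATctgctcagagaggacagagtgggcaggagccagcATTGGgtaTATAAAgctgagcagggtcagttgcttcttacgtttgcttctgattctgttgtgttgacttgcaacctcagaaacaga
Alas2 promoter: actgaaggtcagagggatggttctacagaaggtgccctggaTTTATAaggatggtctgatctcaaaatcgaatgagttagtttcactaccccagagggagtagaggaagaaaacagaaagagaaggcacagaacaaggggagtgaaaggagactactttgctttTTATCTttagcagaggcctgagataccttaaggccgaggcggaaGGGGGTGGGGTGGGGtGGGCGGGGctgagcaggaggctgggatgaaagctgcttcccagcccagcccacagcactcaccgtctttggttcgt
A GATA match was present in 5 of the 6 promoters (29.8% of 32851 promoters of this length have one), all but that of Gata1. CACCC-type matches were found in 3 of 6, those of Hba-x, Alas2 and Gata1 (49.5% of all), CCAAT in 3 of 6, those of Hbb-y, Hba-a1 and Klf1 (37.4%), and TATAAA in 2 of 6, those of Hba-x and Alas2 (13.6%). The CACCC-type pattern is not the same as the run CACCC. That run also stands uncounted, in small letters, in the promoters shown for Hbb-y, Hba-x, Hba-a1 and Hbb-bt. The counted match of Hba-x, CCCCTCCC, does not hold it. A promoter without a CACCC-type match is thus not one without CACCC. In Hba-x the GATA matches lay 234 and 108 bases before the start and TATAAA 28 bases before it, whereas in Alas2 the TATAAA match lay 209 bases before the start. The 4 CACCC-type matches of Alas2 began 42, 40, 35 and 26 bases before the start, and the first 3 overlap in a row. The adult beta-globin gene Hbb-bt, which is not among the 7 but on which some results turn, had no GATA match in this window, 1 CACCC-type match, TATAAA 28 bases before the start and 3 CCAAT matches, 2 of them adjoining on opposite strands. A match is a run of letters and not a shown binding site. The promoters of Hba-a1 and Hba-a2, the second adult alpha gene, share a run of 297 of 300 bases, while the longest run shared by Hbb-bt and Hbb-bs is 14 bases. These runs do not show which copy a probe reads, and no probe or transcript sequences were at hand to check it. The adult alpha signal may come from either or both copies. The adult beta signal likewise cannot be assigned with certainty between Hbb-bt and Hbb-bs, whose transcripts are close to each other. Hba-a2 and Hbb-bs themselves were not analysed here.

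The 3 embryonic globins had their highest level on the E9.5 array by a wide margin. Hbb-y, the embryonic epsilon-type chain, stood at 6.43 on the E9.5 array. Elsewhere its level was −1.20 in lung, −1.69 in esophagus, −2.87 in intestine, −3.53 at day 46, −3.59 in adult stomach and −5.29 at day 42, all well above background. The E9.5 level was 1039.6-fold above adult stomach and 199-fold above lung, its next highest sample. Intestine, day 46 and adult stomach followed each other by less than the SD between probes, as did lung and esophagus. Bulk RNA does not tell apart fewer red cells from less RNA per red cell, here or in any result below.

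Hbb-bh1, the beta-like chain of the earliest primitive red cells, was measured by a pair of probes. The first read 6.85 on the E9.5 array, −4.64 in lung, −5.55 in esophagus and −6.49 at day 46, and was not well above background in adult stomach (−6.81), intestine (−6.90) or day 42 tissue (−7.07). The second read 6.77 on the E9.5 array and was not well above background on the other 6, where it read −7.07 to −9.28. Both probes thus placed the E9.5 array far above the rest, and they disagreed on whether lung, esophagus and day 46 tissue had any signal. By the first probe the E9.5 level was at least 9175-fold above adult stomach, the highest of 15090 genes compared, and 2882-fold above lung. The bound against adult stomach is a log2 difference of 13.16. Under the alternative ways of processing this difference ranged from 9.501 to 13.73, so the size of the bound depends on the processing.

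Hba-x, the embryonic zeta-type alpha chain, read 5.62 on the E9.5 array. It was not well above background on any other array, with readings of −7.20 in lung, −7.57 at day 46, −7.86 at day 42, −7.93 in esophagus, −8.22 in intestine and −8.32 in adult stomach. The E9.5 level was at least 3910-fold above adult stomach (second of 15090 genes) and at least 1778-fold above lung. The lung array, where the adult alpha-globin probe had its highest reading, gave no Hba-x signal above background.

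**Figure D1:**
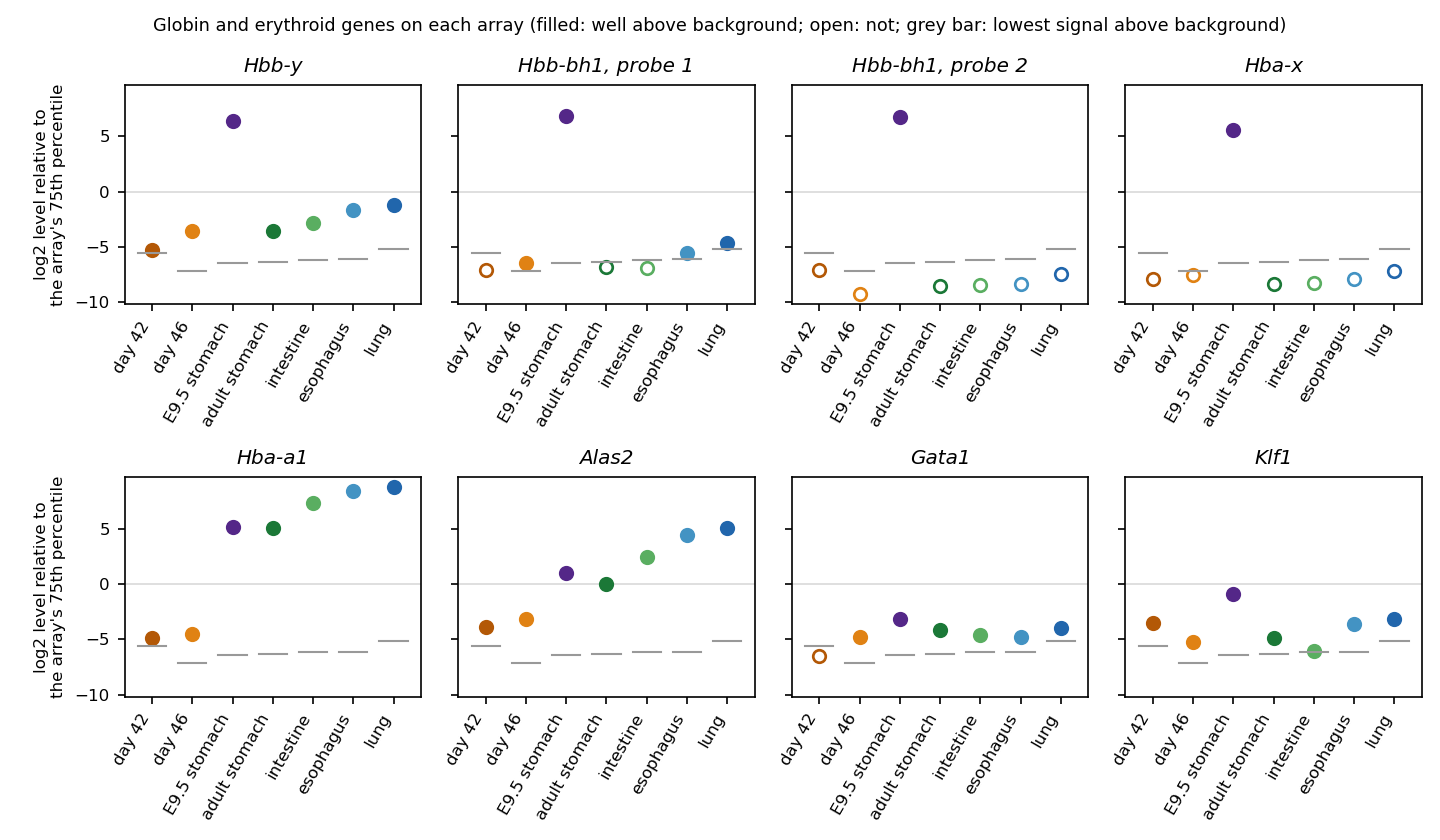
Log2 level relative to the array's 75th percentile (y) of the 8 probes of the 7 genes on the 7 arrays (x), 1 point per array. Filled points were well above background, open points were not, and the grey bar is the array's lowest signal above background. The 3 embryonic globins sit at 5.62 to 6.85 on the E9.5 array and at −1.20 or below elsewhere, while Hba-a1 and Alas2 are highest in lung and lowest in the ES-derived tissues.

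The adult alpha-globin showed another pattern, with high levels in every sample taken from an animal. Hba-a1 stood at 8.78 in lung, 8.44 in esophagus, 7.35 in intestine, 5.15 on the E9.5 array and 5.09 in adult stomach. In the ES-derived tissues it stood at −4.49 (day 46) and −4.90 (day 42), low but well above background. E9.5 and adult stomach differed by 0.06, within the SD between probes of 0.63, and lung exceeded the E9.5 stomach 12.4-fold.

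The adult beta-globin Hbb-bt had 4 probes, and the E9.5 array parted it from the adult alpha gene. On that array the 4 probes read −0.91, −0.52, 0.73 and 0.82. In adult stomach they read 4.30 to 5.93, in intestine 6.70 to 8.03, in esophagus 7.58 to 9.09 and in lung 8.03 to 9.34. All 4 placed the E9.5 stomach below adult stomach, by 28.6-fold to 51.7-fold (log2 differences of −4.84 to −5.69), where Hba-a1 differed by 0.06. Against lung the E9.5 stomach was lower by 367-fold to 749-fold. At day 42 a single probe was above background, and at day 46 the probes read −1.90, −4.83, −5.51 and, not above background, −7.54, so they disagreed by several log2 units in the ES-derived tissues. Hbb-bt was thus lower at E9.5 than in each of the 4 adult organs, whereas Hbb-y and Hbb-bh1 were higher at E9.5 than in each.

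Of the other globin genes, Hbq1a and Hbq1b, the theta chains of the alpha cluster, were both highest in lung (−1.86 and −2.22). Hbq1a read −3.02 in esophagus, −5.66 in intestine and −5.80 on the E9.5 array, and was not above background in adult stomach or the ES-derived tissues. Outside red cells, myoglobin (Mb), the oxygen store of muscle, had its highest level in esophagus (8.08), with 4.28 at day 42 and −5.32 on the E9.5 array, and cytoglobin (Cygb) stood at 3.23 and 3.29 in the ES-derived tissues against −1.55 on the E9.5 array.

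Alas2, the red cell enzyme of haem synthesis, followed the order of Hba-a1. It stood at 5.03 in lung, 4.41 in esophagus, 2.48 in intestine, 0.97 on the E9.5 array and −0.01 in adult stomach, and at −3.21 and −3.88 at days 46 and 42. Each step of this order exceeded the SD between probes. The E9.5 stomach was 1.97-fold above adult stomach.

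The 2 transcription factor genes were highest on the E9.5 array, at low levels. Gata1, whose probe was spotted 10 times, read −3.21 there (SD of spots 0.11), −3.94 in lung, −4.17 in adult stomach, −4.61 in intestine, −4.78 in esophagus and −4.82 at day 46, and was not well above background at day 42 (−6.49, SD of spots 0.63). Lung to day 46 followed each other by less than the SD between probes, and the E9.5 array stood 0.72 above lung, slightly more than that SD of 0.65. Klf1 read −0.95 on the E9.5 array, −3.13 in lung, −3.56 at day 42, −3.66 in esophagus, −4.86 in adult stomach, −5.23 at day 46 and −6.08 in intestine, and its lead over lung was 4.53-fold. Of the 7 genes, 5 were highest on the E9.5 array (26.0% of all genes above background on any array were), and Hba-a1 and Alas2 were highest in lung.

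In the E9.5 stomach against adult stomach, the comparison of embryo and adult of the same organ, 4 of the 7 genes were at least 4-fold higher and none lower, where 11.5% of 15090 genes were higher and 18.1% lower (29.6% apart in either direction). The 4 were Hbb-bh1, Hba-x, Hbb-y and Klf1, which was 15.1-fold higher. Alas2 and Gata1 were 1.97-fold and 1.94-fold higher, and Hba-a1 did not differ beyond the SD between probes. Among all genes Hbb-bh1, Hba-x and Hbb-y held ranks 1, 2 and 6 from the top, and Klf1 rank 372. With the normexp background correction the log2 differences of Hbb-y and Hba-x came to 8.70 and 8.59 (10.02 and 11.93 otherwise), that of Klf1 to 1.88, which no longer passed 4-fold, and that of Gata1 to 0.02.

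Against the day 42 tissue, all 7 genes were at least 4-fold higher in the E9.5 stomach, where 11.5% of 14695 genes were higher, 17.1% lower and 28.5% apart. Hbb-bh1 (at least 5462-fold), Hbb-y (3394-fold), Hba-x (at least 2328-fold) and Hba-a1 (1057-fold) took the first 4 ranks of all genes. Alas2 was 28.7-fold higher, Klf1 6.12-fold and Gata1 at least 5.11-fold. With normexp the log2 differences came to 10.44 for Hbb-bh1 (12.42 otherwise), 9.95 for Hbb-y (11.73), 9.48 for Hba-x (11.18), 8.46 for Hba-a1 (10.05), 3.95 for Alas2 (4.85) and 1.24 for Gata1, under 4-fold. Against the day 46 tissue 6 of 7 were at least 4-fold higher (11.6% of 15701 genes higher, 16.1% lower and 27.7% apart), with Hbb-bh1 at 10323-fold, Hba-x at least 6865-fold, Hbb-y 997-fold, Hba-a1 797-fold, Klf1 19.4-fold and Alas2 18.1-fold. Gata1 was 3.04-fold higher there. The Hbb-bh1 value rests on the first probe, near background at day 46, where the second probe was not above it. With normexp these log2 differences came to 10.88 for Hbb-bh1 (13.33 otherwise), 10.06 for Hba-x (12.75), 9.36 for Hbb-y (9.96), 8.81 for Hba-a1 (9.64) and 3.17 for Klf1 (4.28). These comparisons share the E9.5 array, so their members' values are not independent of each other.

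The step from day 42 to day 46, in which Shh and Bmp4 took the place of FGF10, Wnt3a, Noggin and R-spondin1 while EGF stayed, moved none of the 6 genes that could be compared by 4-fold, where 1.80% of 15453 genes were that far apart (1.04% higher and 0.764% lower). Hbb-y was 3.40-fold higher at day 46 and Klf1 3.18-fold lower, both beyond the SD between probes of 0.51. Hba-a1 differed by 0.41, within that SD, and Alas2 by 0.67. Gata1 was at least 1.68-fold higher. Hbb-bh1 gave no fold, and Hba-x was below background on both arrays. With normexp the Hbb-y difference came to 0.59 and that of Klf1 to −0.94. Klf1 passed 4-fold under median centring (−2.07) and quantile normalization (−2.23), and Hba-a1 turned to −0.35 with normexp and −0.23 with quantile normalization.

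In the day 42 tissue against adult stomach, 2 of 5 genes compared were at least 4-fold lower, and none higher, where 10.3% of 14819 genes were lower and 7.39% higher (17.7% apart). Hba-a1 was 1017-fold lower, the 39th lowest difference of all, and Alas2 14.6-fold lower, while with normexp the log2 differences came to −8.08 and −3.10 (−9.99 and −3.87 otherwise). Hbb-y was 3.26-fold lower and Gata1 at least 2.64-fold lower. Klf1 was 2.46-fold higher in the day 42 tissue, a direction that turned with normexp (−0.35). Hbb-bh1 and Hba-x were below background on both arrays. The day 46 tissue gave like sizes against adult stomach for Hba-a1 (767-fold lower) and Alas2 (9.18-fold lower).

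**Figure D2:**
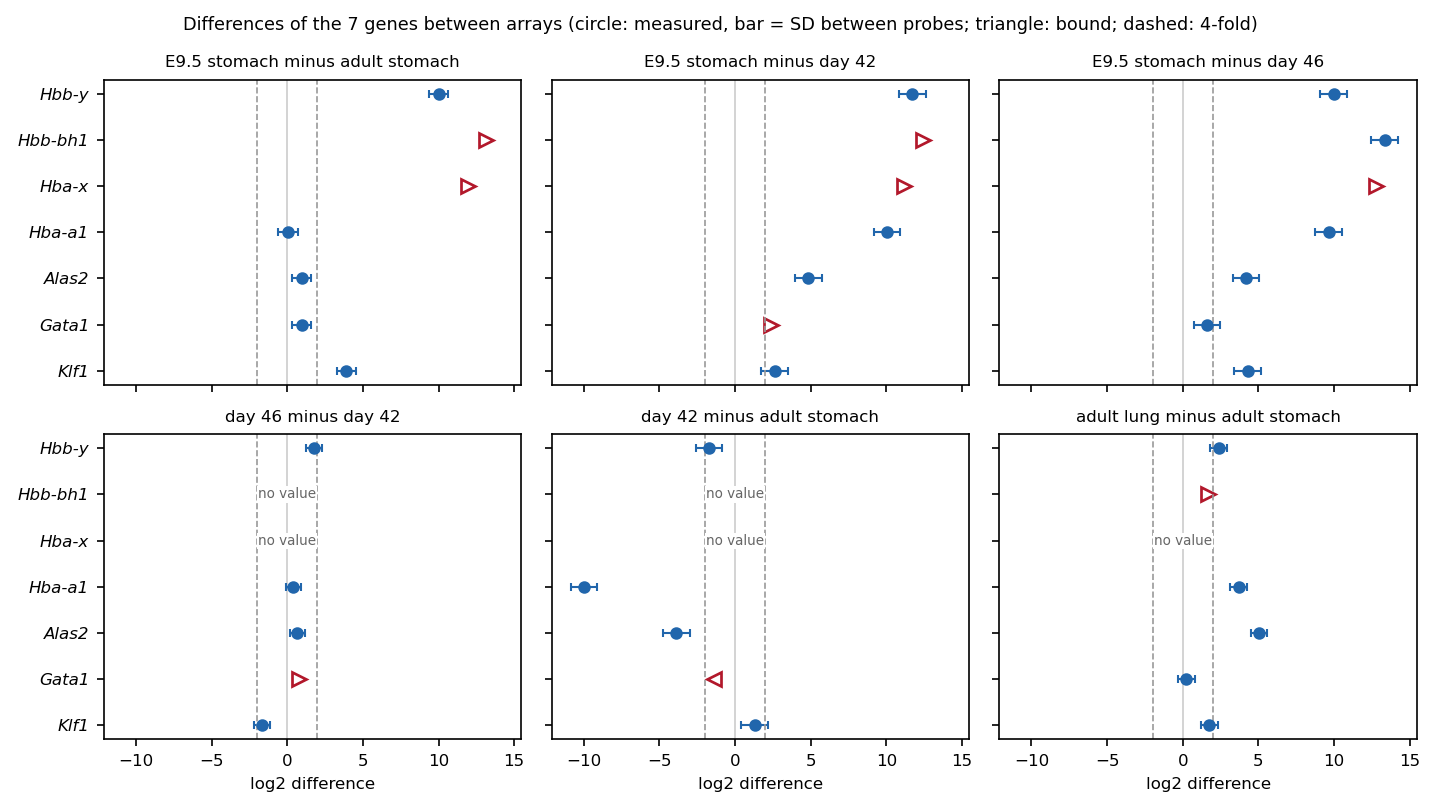
Log2 difference (x) of each of the 7 genes (y) in 6 comparisons between arrays. Circles are measured differences with the SD between probes of a gene as the bar, open triangles are bounds where 1 array was below background, and dashed lines mark 4-fold. All 7 genes lie beyond the right line for E9.5 stomach minus day 42, and none beyond either line for day 46 minus day 42.

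The adult organs on one slide also differed among themselves. Lung against adult stomach had 3 of 6 genes at least 4-fold higher and none lower, where 8.83% of 14704 genes were higher and 8.97% lower (17.8% apart): Alas2 32.9-fold, Hba-a1 12.9-fold and Hbb-y 5.22-fold, the last coming to 1.34 in log2 with normexp and so under 4-fold. Klf1 was 3.33-fold higher, Hbb-bh1 at least 3.18-fold higher by the first probe, and Gata1 1.17-fold higher, within the SD between probes of 0.56. With normexp Klf1 came to 0.26 in log2, Gata1 turned to −0.27 and Hbb-bh1 gave no fold. Of the 7 genes, 5 were above background on the 4 adult arrays. Of these, Hba-a1, Alas2 and Hbb-y had the same order of organs, from lung through esophagus and intestine to stomach. Gata1 and Klf1 had other orders. All 4 probes of Hbb-bt had the order of Hba-a1 too, with lung up to 14.5-fold above stomach. The lead of lung over esophagus was within the SD between probes for Hba-a1 (0.35 against 0.52), Hbb-y (0.49) and the Hbb-bt probes, and just above it for Alas2 (0.62). Of 12609 named genes above background on the 4 adult arrays, 4.60% had this order of lung, esophagus, intestine and stomach. Of the 4244 among them with a range of at least 4-fold, 5.37% had it. The order was not particular to red cell genes. Among list genes above background on the 4 arrays, 6 of 9 platelet, 3 of 9 macrophage and 4 of 12 other erythroid product genes had it. So did 1 of 11 red cell membrane genes, 1 of 13 further erythroid transcription factors and 0 of 11 haem synthesis genes. Hbb-y and Hbb-bt had it alike in the adult organs, and whether Hbb-bt RNA contributes to the Hbb-y signal there was not tested. Esophagus and lung, the organs with most globin signal, also had the most signal of the lung genes (summed level 10.82 in lung, 6.33 in esophagus, 3.04 in adult stomach and −2.76 in intestine), and whether lung tissue on the esophagus array plays a part was not tested.

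**Figure D3:**
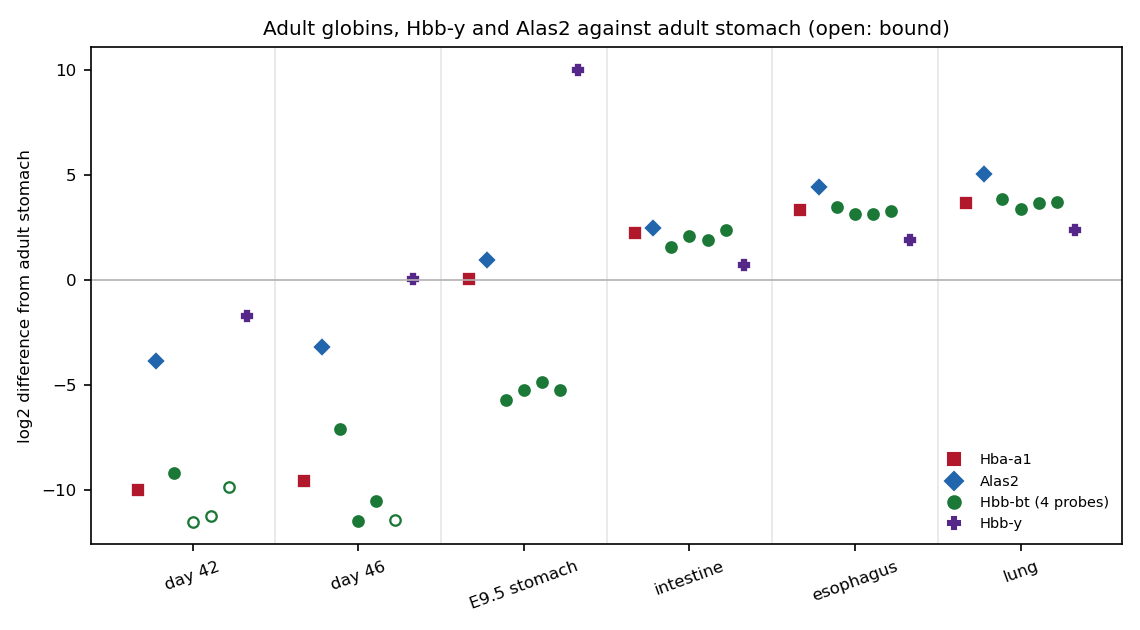
Log2 difference from adult stomach (y) on the other 6 arrays (x) for Hba-a1, Alas2, the 4 probes of Hbb-bt, and Hbb-y. Open points are bounds where the array was below background. On the E9.5 array Hbb-y is 10.02 above adult stomach, Hba-a1 lies at 0.06, and the Hbb-bt probes lie at −4.84 to −5.69.

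Genes of the red cell membrane and its skeleton went with the globins only in part. Of 18 such genes, 18 were above background on the E9.5 array, 17 in lung, 16 in esophagus, 14 in adult stomach and 13 in intestine and in each ES-derived tissue. Of all named genes, 82.1% were so on the E9.5 array, 77.8% in lung, 83.6% in esophagus and 85.2% in adult stomach. The share was 84.4% in intestine, 78.4% at day 42 and 90.5% at day 46. By summed level the 18 genes were not high at E9.5. It was 6.32 in lung, 5.90 in intestine, 5.38 in esophagus and 3.64 in adult stomach. At day 42 it was 3.40, at E9.5 3.21 and at day 46 3.03. In the E9.5 stomach against adult stomach, 4 of the 18 passed 4-fold upward and 4 downward, where 11.5% and 18.1% of all genes did (median 1.23, against −0.03 over all genes). Those upward included the anion exchanger band 3 gene Slc4a1 (6.94-fold) and, named after its values were seen, the Kell blood group gene Kel (5.65-fold). Among the lower ones was Aqp1, a water channel that endothelium also makes (13.0-fold). Against day 42, 7 were higher and 3 lower (median 0.84), where 11.5% and 17.1% of all genes were. Against day 46, 8 were higher and 3 lower (median 1.92), where 11.6% and 16.1% of all genes were.

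Slc4a1 stood at 1.60 in lung, 1.04 on the E9.5 array, 0.56 in esophagus, −1.40 in intestine, −1.75 in adult stomach, −4.19 at day 46 and −5.35 at day 42. Slc4a1 thus had high readings in lung, esophagus and E9.5 stomach and low ones in culture. Hemgn, an erythroid nuclear protein of another list, had its highest level at E9.5 (−1.36) and was not above background in the ES-derived tissues or intestine.

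Haem synthesis genes other than Alas2 mostly stayed within 4-fold, as did most genes of the arrays. Of 11, all were above background on every array. In the E9.5 stomach against adult stomach none was 4-fold higher and 1 lower (median −0.66), where 11.5% and 18.1% of all genes were. The lower one was Tmem14c, a porphyrin carrier of the mitochondrial membrane, at 17.2-fold. Alas1, the form of the Alas2 enzyme that all tissues use, stood at 5.15 in lung, 4.17 in adult stomach and 2.31 to 2.81 in the E9.5 and ES-derived samples, a narrower range than that of Alas2. Against day 42, 1 was higher and 1 lower (median 0.57), where 11.5% and 17.1% of all genes were. Between days 42 and 46 none was 4-fold apart (median 0.02), where 1.80% of all genes were.

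Of 13 further erythroid transcription factors, 1 passed 4-fold upward between adult and E9.5 stomach and 2 downward (median 0.53), shares near the 11.5% and 18.1% over all genes. The one upward was Nfe2, a factor of red cell and platelet precursors (4.60-fold). Those downward were Runx1, the factor needed for definitive blood formation (14.9-fold), and Zbtb7a (a log2 difference of −2.93), a repressor of fetal globin genes in human red cells. Runx1 read 0.15 at day 46, 0.11 at day 42 and −0.04 in lung, and was lowest at E9.5 (−4.92). Against day 42, 4 were higher and 3 lower (median 1.55), where 11.5% and 17.1% of all genes were. In lung against adult stomach 5 were higher and none lower (median 0.98, against −0.14 over all genes), where the shares were 8.83% and 8.97%.

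Genes of erythropoietin signalling and iron uptake had none of 12 higher and 3 lower in the E9.5 stomach against adult stomach (median −0.54), where 11.5% of all genes were higher and 18.1% lower. The 3 were the iron regulator Hfe (11.6-fold), transferrin Trf (6.99-fold) and the transferrin receptor gene Tfr2 (4.55-fold). Trf was highest at day 42 (5.66) and lowest at E9.5 (−3.01). Of 15 other erythroid products, 2 were higher and 2 lower (median 0.24), with Hemgn 8.15-fold higher and Mns1, which is also a gene of motile cilia and flagella, 56.0-fold higher, and with carbonic anhydrase 2 (Car2), which acid-secreting stomach cells also use, 45.9-fold lower. With median centring all differences of E9.5 minus adult stomach shift together (median over all genes 0.54 in place of −0.03), so a list's median is to be read against that over all genes. Each list was chosen with earlier results of these data known, and its counts describe the list without a test.

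**Figure D4:**
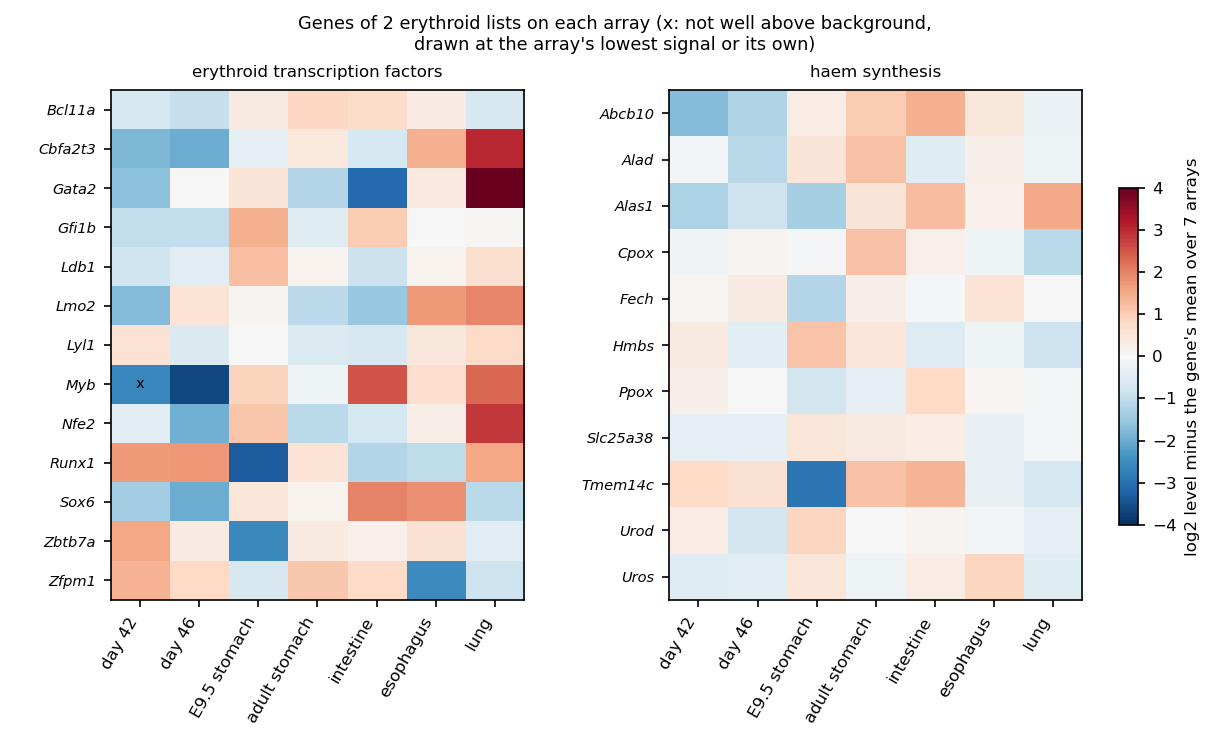
Log2 level minus the gene's own mean over the 7 arrays (colour) for 13 transcription factor and 11 haem synthesis genes (rows) on each array (columns). An x marks a gene not well above background there, drawn at the higher of its own signal and the array's lowest signal above background. Runx1 and Zbtb7a have their lowest values on the E9.5 array, and all 11 haem synthesis genes were above background on every array.

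Genes of other cells moved between the same arrays. Where 18.1% of all genes passed 4-fold downward from adult to E9.5 stomach, all 9 macrophage genes did (median −4.94). Their summed level was −1.32 there, against 5.90 in adult stomach, 6.69 in intestine, 7.52 in esophagus, 8.33 at day 46, 8.75 at day 42 and 8.87 in lung. Of these, Adgre1, which encodes F4/80, was not above background at E9.5, and lysozyme Lyz2 was 775-fold lower than in adult stomach. White blood cell genes had 0 higher and 8 lower of 14 compared (median −2.43), where 11.5% and 18.1% of all genes were. The pan-leukocyte gene Ptprc was 62.4-fold lower. The summed level of the 17 white cell genes was −0.38 at E9.5 and 6.04 in lung, and between those levels elsewhere. The E9.5 stomach thus had the most embryonic globin signal and the least macrophage and white cell signal of the 7 arrays.

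Endothelial genes had none of 12 at 4-fold in the E9.5 stomach against adult stomach (median 1.19), where 29.6% of all genes were. Of all genes, 11.5% were higher and 17.1% lower against day 42, and 11.6% and 16.1% against day 46. Of the endothelial genes 8 were higher and 0 lower against each (medians 4.33 and 4.15). Their summed level was 8.24 in lung, 5.33 in esophagus, 5.17 at E9.5, 4.30 in adult stomach, 3.03 at day 42, 2.45 at day 46 and 2.31 in intestine. The receptor gene Kdr was 210-fold higher at E9.5 than at day 42, and Pecam1 and Tie1 were not above background at day 42. In lung against adult stomach 11 of 12 endothelial, 11 of 17 white cell and 6 of 10 platelet genes were at least 4-fold higher (medians 4.00, 2.79 and 4.21). The share over all genes was 8.83%. The summed level of the 11 platelet genes was 5.01 in lung, 3.67 in esophagus, 3.15 in intestine and 2.84 in adult stomach, the order of Hba-a1 among the adult organs. Outside them the orders differ, with platelet genes at 3.53 at day 46, 3.04 at day 42 and 1.63 at E9.5. Whether the cell makeup of the samples plays a part in the globin differences was not tested.

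**Figure D5:**
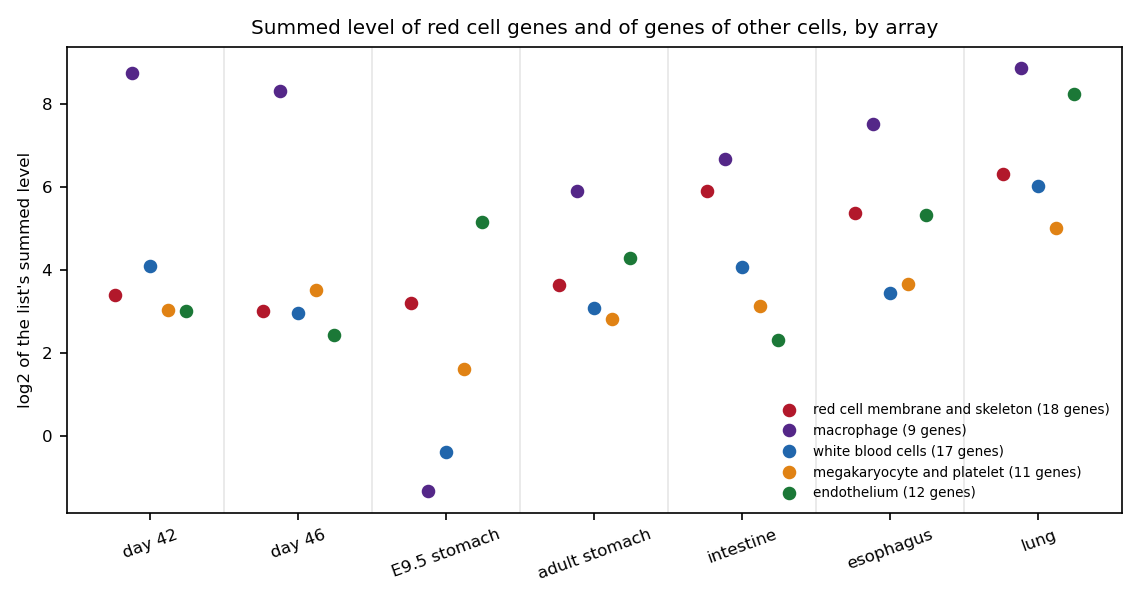
Log2 of the summed level (y) of the genes of 5 lists on each array (x). Lists differ in their genes, so a list is to be compared across arrays only. Macrophage and white blood cell genes are lowest on the E9.5 array (−1.32 and −0.38), and endothelial genes are highest in lung (8.24).

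Likeness of pattern over the 7 arrays was described by Pearson's r (with Spearman's rho), among 10123 genes above background on at least 1 array with a range of at least 2 log2 units. Values below an array's lowest signal above background were raised to it. These r values share their arrays and that scale, and are given with no test. Hba-x, above background on the E9.5 array alone, was at the raised value on the other 6, and Hbb-bh1 on 3 of them, so their r of 0.998 comes in part from values set by the array and not by the gene (0.888 over the 6 arrays without E9.5). Hba-a1 and Alas2, measured on all 7 arrays, had r = 0.956 (rho = 1.0), and 0.960 without the E9.5 array. Hbb-y went with Hbb-bh1 at r = 0.951 (rho = 0.75), and at 0.49 without the E9.5 array, where its r with Alas2 was 0.92.

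The genes that came closest to Hbb-bh1 and Hba-x included Lin28a, which encodes an RNA-binding protein of embryonic cells, and Etv2, a factor gene of early blood and vessel precursors. They stood at 2.22 and 0.41 on the E9.5 array, but on the others Lin28a was at the raised value throughout and Etv2 on all except day 46, so their r and rho with Hba-x are largely fixed by those shared values and are not given. Hbb-y was closest to Cdc27 (0.987, rho = 0.96), a subunit of the anaphase-promoting complex, and Hnrnpdl (0.985, rho = 0.93). Hba-a1 was closest to Cd99 and Zhx1 (both 0.992), Alas2 to Adam1a (0.998) and Bmp3 (0.988), Gata1 to Zfp930 (0.980) and Camk4 (0.979), and Klf1 to Fbxw8 (0.991) and Zfp867 (0.974).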

How the data were processed

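RNA of 7 samples was measured on 7 one-colour arrays, 1 per group. The submitters' processing notes give Agilent Feature Extraction 10.5 as the software, but in the file headers it is 10.7.3.1 on both ES-derived arrays and 10.5.1.1 on the remaining 5. The scanner files deposited give a background-corrected intensity per spot and mark controls, outliers and spots clear of background, per the file headers. A second set of values deposited by the authors is in log2, shifted to the 75th percentile of each array. Its medians per array were −3.33 (day 42), −2.92 (day 46), −2.75 (esophagus), −2.68 (lung), −2.86 (adult stomach), −2.98 (intestine) and −3.43 (E9.5), and its r with the values here was at least 0.999. The headers name an older genome build than that of the reference, so coordinates are given for promoters alone.

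Control and outlier spots (40 to 728 per array) were left out. The processed intensity was put on the log2 scale, averaged over a probe's spots and set relative to the 75th percentile of its array. The flag for signal clear of background had to be set in a share of 0.5 or more of a probe's spots. Probes were named through a RefSeq table (24375 by accession, 57 by symbol, 16742 unnamed), and where a gene had several probes, counts over genes used the probe whose mean level was highest. A gene below background on 1 array of a pair was set there to its own signal or to the lowest signal clear of background on that array, whichever was higher, so its fold is a bound, written "at least", and a bound under 1 gave no fold. Below background on both, it was left out. The number of arrays, 1 per group, limits the precision, and no p-value could be given.

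The SD between probes of a gene, rescaled to 1 probe, served as the error of a difference. The 8 alternatives were normexp background correction (limma 3.58.1, offset 50), centring on the median, quantile normalization, the deposited log2 table, no background filter, genes above background on both arrays, the mean over probes, and a 2-fold threshold. Counting was tested on simulated data. Values of 2 genes of the red cell membrane list are not reported here. Named were the 7 genes, the 5 genes most like each over the arrays, and from each list the 4 with the largest difference between E9.5 and adult stomach and those that define a cell type, of which the text names fewer. Theta globins, myoglobin and cytoglobin were the measured globin genes beside these. The genes, lists and comparisons were chosen with earlier results of these data known. Values were computed with Python 3.11.15, numpy 2.4.6 and pandas 2.3.3.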

Additional observations from a re-analysis of the deposited data

How the results depend on the processing

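No paired analysis was possible because each group had 1 array and no result comes from a test. The number of the 7 genes at least 4-fold apart, or highest on the E9.5 array, stayed within 1.5 times of the value given in 45 of 52 recomputed counts. Day 46 against day 42 went from 0 to 1 gene (Klf1) with median centring and with quantile normalization, and to 2 at a 2-fold threshold. With only genes above background on both arrays, E9.5 against adult stomach went from 4 to 2 genes and E9.5 against day 42 from 7 to 4, since genes below background on 1 array of the pair left the comparison. At 2-fold, day 42 against adult stomach went from 2 to 5 genes and lung against adult stomach from 3 to 5. No 4-fold call changed to the opposite direction. Some differences under 4-fold did change sign: Klf1 in day 42 minus adult stomach, Gata1 in lung minus adult stomach, and Hba-a1 in day 46 minus day 42. Among single differences 220 of 256 moved by less than the SD between probes. Many of these could hardly move. The deposited table shares the scaling used here (38 the same). Requiring signal above background on both arrays leaves measured differences as they were (28 the same), and most of the 7 genes had 1 probe to average. With normexp 23 moved by more than that SD and 15 did not. Normexp moved the most: E9.5 minus adult stomach became 8.70 for Hbb-y and 8.59 for Hba-x, and the cause was not tested.

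Median centring shifted all genes, by a median difference of 0.54 for E9.5 minus adult stomach (−0.03 with the 75th percentile), 0.38 for E9.5 minus day 46, 0.43 for day 42 minus adult stomach and −0.39 for day 46 minus day 42. It moved the share of genes at 4-fold that were higher from 38.8% to 57.4% in the first of these, from 41.9% to 58.8% in the second, from 41.8% to 61.6% in the third and from 57.6% to 25.6% in the fourth, which quantile normalization put at 33.6% and normexp at 44.3%. Genes below background on both arrays of a comparison had no value to recompute. Levels near background, as of Gata1 and of Hbb-bh1 outside the embryo, are limited by signal over background, and 1 array per group leaves the spread between animals and cultures unknown.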

Other observations

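Genes that clear haem and free haemoglobin mostly had high levels in the day 42 tissue and low levels in the E9.5 stomach. Of 8 such genes, 6 were highest at day 42 (11.9% of all genes above background were), and 7 were at least 4-fold lower at E9.5 than at day 42, where 17.1% of all genes were (median −3.71, against 0.03 over all genes), with none higher. Haptoglobin (Hp), the plasma protein that binds free haemoglobin, stood at 6.60 in lung, 6.37 at day 42, 4.33 at day 46, 2.23 in intestine, 1.13 in esophagus, −2.73 in adult stomach and −6.27 at E9.5. The haem oxygenase gene Hmox1 stood at 4.43 at day 42, 3.71 at day 46, 2.90 in adult stomach, 2.86 in esophagus, 1.18 in lung, −0.39 in intestine and −0.60 at E9.5. Cd163, the macrophage receptor that takes up haemoglobin bound to haptoglobin, was above background on 6 arrays (−2.05 to 0.65) and not at E9.5. The samples with the least haemoglobin signal, days 42 and 46, thus had the most Hmox1 and, after lung, the most Hp. Lung had the highest Hba-a1 level (8.78) and also the highest Hp (6.60). The macrophage genes had summed levels of 8.75 at day 42 and −1.32 at E9.5, and their part in these values was not tested.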
